A study of Mus musculus with 46 samples.

Results

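The loci described here are the 2000 tallest Hnf4a binding loci of mouse liver that were found in every Hnf4a ChIP-seq sample of a diet study. Overlapping peaks of the 4 Hnf4a peak lists were merged into 70756 loci, of which 23344 held a peak in all 4 lists. These shared loci were ranked by the mean over the lists of the percentile of peak height within its list, and the 2000 highest were taken, which is 8.57% of the shared loci and 2.83% of all merged loci. Each of the 2000 contained exactly 4 peaks, 1 from each list. Since the heights chose the loci, the heights are given as a description and were not used as evidence.

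The samples were livers of male C57BL/6 mice without a genetic change, placed from about 6 weeks of age on a lipid-rich diet (LD, 60% of energy as fat, called a high fat diet in the labels) or a carbohydrate-rich diet (CD, 70% of energy as carbohydrate, called a low fat diet) for up to 20 weeks. Hnf4a and C/EBPa were profiled in 2 livers on each diet, the histone mark H3K27ac in 3 on each diet, and RNA in 5 on each diet. Promoter capture Hi-C (PCHi-C), which lists the DNA fragments in contact with captured promoters, was made from 2 livers on each diet, whose reads the authors pooled by diet. Whole liver was used throughout, so fewer cells of a type and less RNA or signal per cell cannot be told apart. The hepatocyte markers chosen for this work were all present in the RNA table, with a median TPM (transcripts in a fixed total, corrected for gene length) of 6105 over 10 genes. None of the 46 markers of macrophages, endothelial cells, stellate cells, cholangiocytes, lymphocytes and adipocytes in that table was the nearest gene of a highest shared locus, while 3 endothelial markers and 1 lymphocyte marker had a start within 50 kb of one. Depth was 31707963 to 39012699 counted read pairs for each RNA library, and 3204445 to 7064467 tags in peaks for each Hnf4a list.

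Hnf4a (hepatocyte nuclear factor 4 alpha) is a nuclear receptor that binds DNA as a homodimer and is a main regulator of hepatocyte identity. It is known for its control of genes for lipoproteins, clotting factors, bile acids and glucose production. C/EBPa is a basic leucine zipper factor of hepatocytes and adipocytes that shares many liver enhancers with Hnf4a. H3K27ac marks active enhancers and promoters, and PCHi-C connects such elements with the promoters that they touch.

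The sequence at the centre of the highest loci is shown first, because it can be compared with the known recognition sequence of the factor. The strings searched were CAAAGNNCA, which holds the sequence typical of HNF4 dimers, and CAAAGTCC, the second of the 8-base words of these same loci ordered by their frequency relative to the flanks. Both were searched on both strands and chosen after the files had been opened. The lines give the central 200 bp of 7 of the 10 highest loci on the plus strand of mm9, with any match of either string in capitals. The first 6 hold a match and the last holds none.
Rank 1, nearest gene Hjurp, chr1:90184715-90184914: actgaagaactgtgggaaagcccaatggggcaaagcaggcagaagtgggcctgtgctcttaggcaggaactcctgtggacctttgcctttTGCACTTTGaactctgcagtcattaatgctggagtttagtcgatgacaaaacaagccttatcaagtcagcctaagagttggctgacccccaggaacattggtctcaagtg
Rank 2, nearest gene Nrip1, chr16:76454110-76454309: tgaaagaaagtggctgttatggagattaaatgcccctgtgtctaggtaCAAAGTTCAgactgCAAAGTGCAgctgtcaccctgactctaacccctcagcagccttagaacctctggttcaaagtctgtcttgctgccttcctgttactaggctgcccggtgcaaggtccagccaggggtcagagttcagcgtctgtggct
Rank 3, nearest gene Insr, chr8:3256634-3256833: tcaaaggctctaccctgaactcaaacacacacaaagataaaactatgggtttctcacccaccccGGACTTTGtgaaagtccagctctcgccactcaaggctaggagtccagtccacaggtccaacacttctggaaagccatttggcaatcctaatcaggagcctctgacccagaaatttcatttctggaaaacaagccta
Rank 5, nearest gene Lifr, chr15:7109907-7110106: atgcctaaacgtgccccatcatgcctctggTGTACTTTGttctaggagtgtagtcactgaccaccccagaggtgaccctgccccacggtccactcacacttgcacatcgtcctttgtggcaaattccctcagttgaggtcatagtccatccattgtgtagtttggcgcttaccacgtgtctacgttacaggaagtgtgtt
Rank 8, nearest gene Tnfrsf8, chr4:144871003-144871202: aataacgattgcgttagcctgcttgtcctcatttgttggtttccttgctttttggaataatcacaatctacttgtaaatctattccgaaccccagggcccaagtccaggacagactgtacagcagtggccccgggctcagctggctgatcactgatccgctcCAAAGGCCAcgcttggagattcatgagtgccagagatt
Rank 9, nearest gene Ints7, chr1:193464081-193464280: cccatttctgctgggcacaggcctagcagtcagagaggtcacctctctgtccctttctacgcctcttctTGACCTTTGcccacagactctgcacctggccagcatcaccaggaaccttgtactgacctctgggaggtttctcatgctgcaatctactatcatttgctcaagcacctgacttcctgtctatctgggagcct
Rank 10, nearest gene Tns1, chr1:74061212-74061411: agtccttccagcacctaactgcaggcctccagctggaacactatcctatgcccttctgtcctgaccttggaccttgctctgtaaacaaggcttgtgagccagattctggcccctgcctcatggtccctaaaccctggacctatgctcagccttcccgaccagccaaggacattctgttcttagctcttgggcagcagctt

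Of the 10 highest loci, 5 held CAAAGNNCA in their central 200 bp and 6 held this string or CAAAGTCC. The locus of rank 2, upstream of the corepressor gene Nrip1, held CAAAGNNCA at 2 places. In the locus of rank 3, inside the insulin receptor gene Insr, the match was to CAAAGTCC on the minus strand.

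Over the highest loci, of which all but 1 had a readable sequence, 713 (35.7%) held CAAAGNNCA in the central 200 bp (95% Wilson interval 33.6% to 37.8% taken over all 2000, and like the other intervals here for counting error only). The same string was found in 25.8% of the other shared loci, in 5.13% of windows of equal length 1000 bp to either side of the highest loci, and in 3.81% of windows centred on 86842 annotated transcript starts. The word CAAAGTCC was present in 17.6% of the highest loci, 10.4% of the other shared loci and 1.0% of the flanks. Of the first 20 of 1206 8-base words ordered by their frequency over the flanks, 11 shared 6 letters with the HNF4 sequence. Matches lay near the centre, with 417 loci (20.9%) holding CAAAGNNCA within 25 bp of the centre. A match describes the letters alone, and no match says only that these letters are not in the window.

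**Figure D1:**
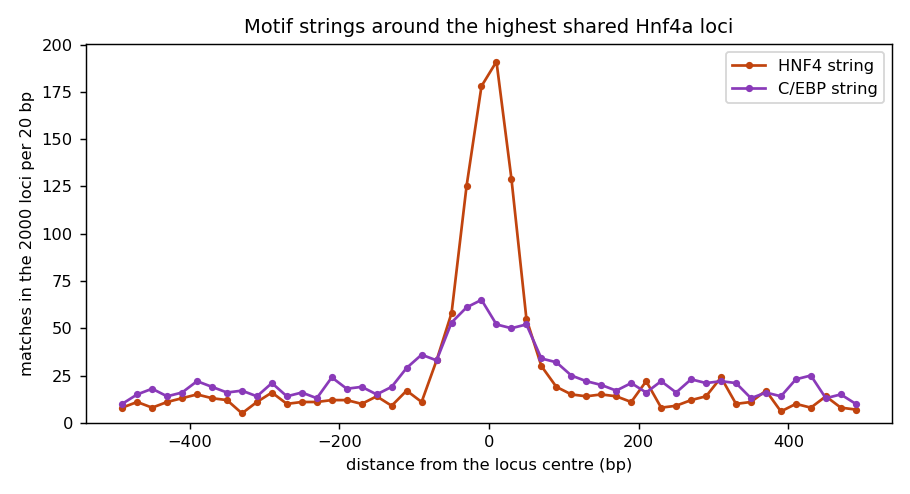
Number of matches of the HNF4 string (CAAAGNNCA) and the C/EBP string (TTGCNNAA) in bins of 20 bp against the distance from the locus centre, over the 2000 highest shared Hnf4a loci, of which 1 had no readable sequence. The HNF4 string rises sharply at the centre, with 417 loci holding it within 25 bp, while the C/EBP string is lower and broader there, with 139 loci.

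Strings of other liver factors were searched in the same windows. TTGCNNAA, found in C/EBP sites, was present in 403 loci (20.2%), against 18.8% of the other shared loci and 7.33% of the flanks. AGGTCA, the hexamer that many nuclear receptors bind, was present in 35.6% of the loci, 33.0% of the other shared loci and 13.2% of the flanks, and 275 loci held it together with CAAAGNNCA, with which it can overlap. TGTTTAC, a forkhead sequence bound by Foxa factors, was present in 6.60% of the loci, 6.06% of the other shared loci and 2.30% of the flanks. TGANTCA, bound by AP-1, was present in 7.30% of the loci, 7.63% of the other shared loci and 5.50% of the flanks. CCGGAAG, bound by ETS factors, was present in 1.30%, 1.68% and 1.03%.

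The highest locus of all lay at chr1:90184703-90184927 in an intron of Trpm8 and the nearest start site of the RNA table was that of Hjurp, the gene of a centromere histone chaperone, at 10.7 kb. Its height, the normalized tag count that HOMER gives for a peak, was 953.2 and 863.0 in both LD livers, 689.5 in CD replicate 1 and 1325.0 in CD replicate 2. The samples of both diets overlapped there, with CD replicate 2 highest and CD replicate 1 lowest. Rank 7 lay in the same gene, 1.72 kb from the Hjurp start, at chr1:90175761-90175979, with heights of 420.0 and 391.2 on LD and 251.5 and 583.0 on CD. The second locus, chr16:76454092-76454321, lay between genes 80.9 kb upstream of Nrip1, with heights of 670.0 and 538.5 on LD and 459.8 and 859.8 on CD. The third, chr8:3256621-3256848 in an intron of Insr, reached 539.5 and 398.5 on LD and 372.5 and 702.8 on CD. The same order of samples, CD replicate 2, LD replicate 1, LD replicate 2 and CD replicate 1, held at 9 of the 10 highest loci. The totals of tags in peaks stood in this order too, at 7064467, 5655268, 5154985 and 3204445. The deposited height was 0.25 times the tag count in every list, so it was not scaled to these totals. The order of the samples and the overlap of the diets in deposited heights are therefore not read as an effect of diet.

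Ranks 4 to 10 had mean heights between 358.6 and 411.4. Rank 4 lay in an intron of Fermt2, which encodes an integrin activator, and rank 5, at chr15:7109889-7110116, in an intron of Lifr, the receptor of leukaemia inhibitory factor. Rank 6 lay in an intron of Gm20388, 79.3 kb from the start of the corepressor gene Gse1. Rank 8 lay in an intron of Tnfrsf8, rank 9 lay between genes 64.7 kb from the start of Ints7, and rank 10 lay in an intron of Tns1, which encodes a focal adhesion protein. Of the 10 highest loci, 8 were in introns, and all 10 overlapped an H3K27ac peak in every one of the 6 samples.

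**Figure D2:**
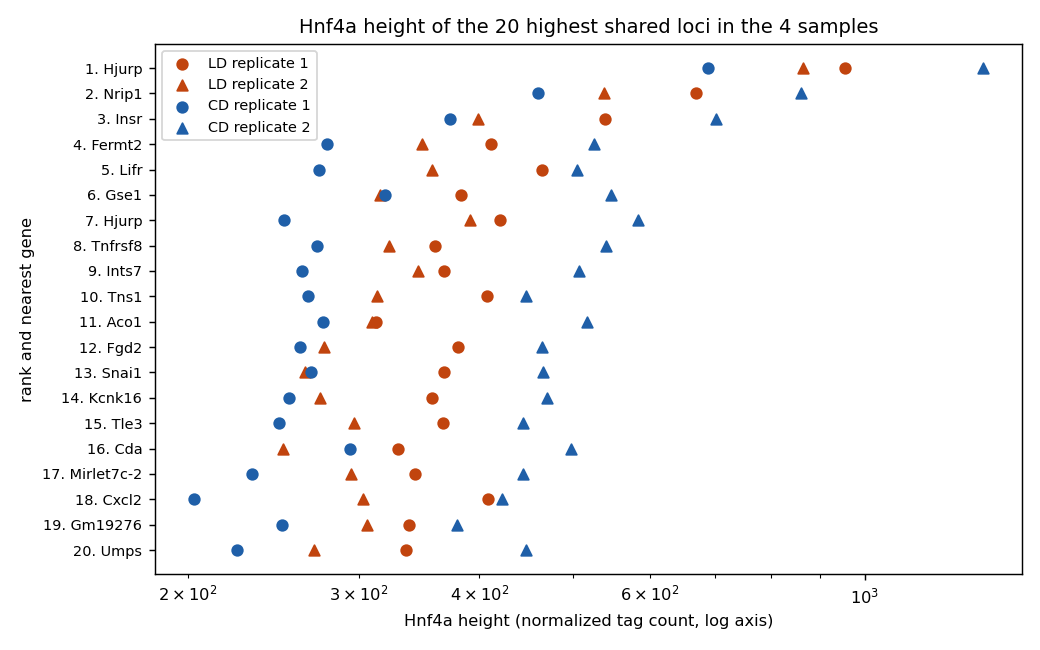
Hnf4a height (normalized tag count, log axis) of the 20 highest shared loci, named by rank and nearest gene, with 1 point for each of the 2 LD and 2 CD samples. The highest locus, nearest to Hjurp, stands above the others in each of the 4 samples, and the diets overlap because CD replicate 2 is mostly the highest and CD replicate 1 the lowest.

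Over all 2000 loci the median height on LD was 132.1 and 115.2 and on CD it was 82.7 and 170.0, against 33.0, 31.0, 19.8 and 39.2 in the other shared loci. CD replicate 2 was the highest sample at 1792 of the 2000 loci and CD replicate 1 the lowest at 1863. The choice was not a sharp boundary. The 5 lowest loci taken had mean heights of 91.2 to 98.9, and the 5 highest loci left out had 91.2 to 96.1.

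The highest shared loci were mostly distal. Their centre lay within 1 kb of an annotated start site of the RNA table at 212 loci (10.6%, 95% Wilson interval 9.33% to 12%), compared with 12.3% of the other shared loci. A further 27.2% lay between 1 and 10 kb, 37.9% between 10 and 50 kb, and 24.4% beyond 50 kb, and the median distance was 16.4 kb against 19.5 kb in the other shared loci. In the GENCODE annotation of mm9, 968 of the 2000 centres (48.4%) lay in introns, 894 (44.7%) between genes and 138 (6.90%) in exons. The corresponding shares of the other shared loci were 49.8%, 41.8% and 8.42%.

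H3K27ac was near universal at these loci. A peak of the mark overlapped 1925 of the 2000 loci (96.3%) in all 6 samples (95% Wilson interval 95.3% to 97.0%), against 74.3% of the other shared loci. In single samples the share on LD was 98.7%, 98.3% and 98.3%, and on CD 98%, 98.35% and 98.45%, so the diets overlapped. The acetylated island around a highest locus had a median width of 6100 bp (quartiles 3400 and 11200 bp), compared with 3600 bp at the other shared loci. By rank, the share with H3K27ac in all 6 samples was 93.55% in the next 2000 loci and 21.2% in the last bin.

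**Figure D3:**
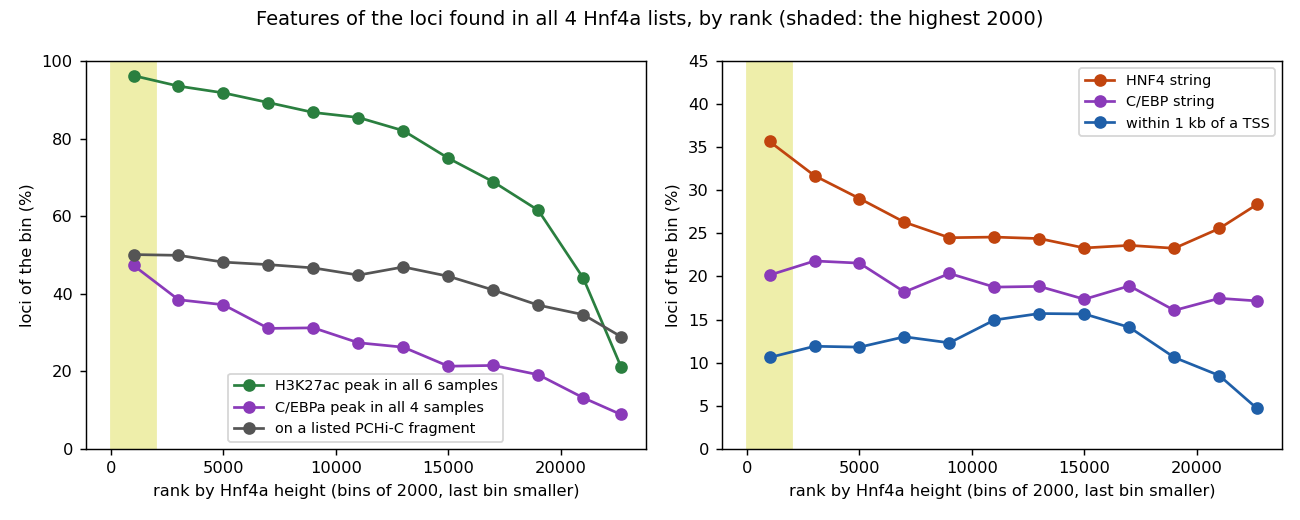
Share of loci (%) with each feature against the rank by Hnf4a height, for all 23344 loci found in the 4 Hnf4a lists in bins of 2000 (the last bin is smaller), with the highest 2000 shaded. The share with H3K27ac in all 6 samples was 96.3% in the highest bin and 21.2% in the last, and the share with C/EBPa in all 4 samples was 47.3% and 8.85%.

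Only 3 of the 2000 loci had H3K27ac on 1 diet alone, that is in its 3 samples and in no sample of the other. A peak of this kind on LD was found at 2 loci, against 0.69% of all shared loci, and on CD at 1 locus, against 0.377%. The 2 LD loci were those of rank 1266 near Rbsn and of rank 1656 in an intron of Cyp2b13, and the CD locus was that of rank 122 near Commd7. At the locus of Cyp2b13, chr7:26867680-26867905, the mark covered a mean of 66.8% of the surrounding 2000 bp on LD and none on CD. The deposited Hnf4a height there, not scaled to the tags of each list, was 103.0 and 91.5 on LD, against 67.0 and 139.5 on CD, which overlap. These 3 loci were chosen after their values were seen.

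A group of 13 loci had no H3K27ac peak in any sample. The highest of them, rank 135, lay on an unplaced contig of chromosome 1, and the next, rank 317, lay near the pseudogene Pisd-ps3. The others included loci near Kcnq1, Nkx2-5 and Gli2, and all 13 were picked out after their values were seen. Of the 13 loci, 3 had C/EBPa in all 4 samples and 1 lay on a listed PCHi-C fragment.

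C/EBPa was found at most of the highest shared loci. A C/EBPa peak overlapped 946 of the 2000 loci (47.3%) in all 4 C/EBPa samples (95% Wilson interval 45.1% to 49.5%), compared with 25.5% of the other shared loci, and 448 loci (22.4%) had none in any sample. In single samples the share on LD was 66.8% and 65.05%, against 62.1% and 55.4% on CD. The peaks at these loci were tall for C/EBPa, at a median percentile of 89.9 within their lists where all 4 samples had one. The string TTGCNNAA was present in 33.9% of the 946 loci with C/EBPa in all 4 samples and in 4.25% of the 448 loci with none, and the HNF4 string in 33.1% and 34.5%.

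Among the 10 highest loci, 6 had C/EBPa in all 4 samples. At the highest of all, the LD samples had C/EBPa heights of 70.5 and 71.0, against 123.5 and 88.5 for CD, with both CD samples above both LD samples. These are heights as deposited, and in the test described below this locus was not called. Over the 968 C/EBPa loci at highest shared loci the median heights were separated likewise, at 34.5 and 37.5 on LD and 60.5 and 39 on CD. The locus of rank 8 in Tnfrsf8 had 93.0 and 80.5 on LD against 118.5 and 75 on CD, which overlap. No C/EBPa peak was found at rank 6 near Gse1 or rank 10 in Tns1, although their Hnf4a heights were near those of the loci above and below them.

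Between the diets, C/EBPa height was tested with limma over all 13813 loci with a C/EBPa peak in all 4 samples, on log2(height + 1) centred on the median of each sample. Calls needed a change above 1.5-fold and a p-value, adjusted by Benjamini and Hochberg, under 0.05. Over all loci tested 17.6% were called, with 8.83% higher on LD and 8.74% higher on CD. Of the 968 C/EBPa loci at a highest shared Hnf4a locus, 182 (18.8%) were called, which is near that background. Among these, 53 (5.48%) were higher on LD and 129 (13.3%) were higher on CD. The counts and the background both depended on the scaling. In the order higher on LD and higher on CD, edgeR on the tags called 65 and 87 at the highest loci and 1493 and 811 over all loci tested, and quantile-normalised heights 59 and 73 against 1271 and 806. Heights as deposited gave 11 and 25 against 117 and 296. Without CD replicate 2 the calls were 33 and 50 against 663 and 388. The share of the calls that was higher on CD was 70.9% at the highest loci and 49.7% over all loci, and under the heights as deposited 69.4% and 71.7%, so the difference from the background was lost there. Leaving out the centring moved the median log2 difference of all loci tested from -0.10 to -0.39.

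The C/EBPa loci with the largest fold changes, chosen after their values were seen, included 1 near Necab1, a neuronal calcium-binding protein gene. The height there on LD was 49.0 and 98.5, against 27 and 12.5 on CD, a difference of 2.16 ± 0.26 on the log2 scale (SE, limma adjusted p = 1.28e-09). Near Ireb2, a regulator of iron metabolism, it was 97.0 and 98 on LD, against 38.0 and 28.5 on CD. In the opposite direction, near the protease inhibitor gene Serpina1e the LD samples had 20.5 and 23.5, against 107.5 and 66.0 on CD, a difference of -1.60 ± 0.23 (limma adjusted p = 1.83e-07). At these 3 loci the samples of the diets did not overlap.

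The Hnf4a heights are given by diet as a description, because they chose the loci. In the deposited heights, both LD samples stood above both CD samples at 62 of the 2000 loci (3.10%), against 16.6% of all shared loci, and below both at 12 (0.60%), against 2.62%. At the other 1926 loci the diets overlapped. Since these heights are not scaled to the tags of each list, neither separation nor overlap in them is read as an effect of diet. The same fit over all 23344 shared loci called 5.19% of them, and 97 of the 2000 (4.85%) were among these, from which nothing is read, since the choice by height bears on these calls.

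Of the 2000 loci, 1002 (50.1%, 95% Wilson interval 47.9% to 52.3%) lay on a fragment listed in PCHi-C at a CHiCAGO score of at least 5 and a distance of up to 1 Mb, compared with 43.1% of the other shared loci. A captured promoter fragment (bait) held 352 of them (17.6%, against 17.2%), and a fragment contacted by a bait held 650 (32.5%, against 26.0%). The 620 contacted fragments took part in 1225 contacts. Of these contacts, 749 (61.1%) were listed on both diets, 135 (11%) on LD alone and 341 (27.8%) on CD alone. The shares were 56.9%, 17.6% and 25.5% for the other shared loci, and 53.8%, 23.5% and 22.7% over all 195691 contacts. Each diet had 1 list from pooled livers, so these differences have no replicate check, and a contact just under the score limit on a diet counts as absent there.

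At most loci on contacted fragments the nearest gene was not among the listed contacts. A nearest gene counted only if it was annotated on a listed bait, and genes without a captured promoter were not set aside. Among the 650 loci on contacted fragments, the nearest gene was on a contacting bait at 143 (22.0%), against 17.6% for the other shared loci. The locus of rank 4 contacted the start of Fermt2 51.2 kb away, with scores of 6.58 on LD and 5.64 on CD. The locus of rank 8 in Tnfrsf8 contacted instead Tnfrsf1b, a receptor of tumour necrosis factor, with scores of 18.5 on both diets, Vps13d with 17.6 on LD and 33.0 on CD, and Dhrs3, a retinaldehyde reductase gene 391 kb away, with 22.1 and 25.1. The locus of rank 11 in Aco1, which encodes cytosolic aconitase, contacted the start of Aco1 itself with 8.42 and 9.40 and that of Aptx, a DNA repair gene 520.2 kb away, with 15.1 and 24.8. Near Apob, the gene of the main protein of very low density lipoproteins, the locus 57.6 kb upstream contacted the Apob start with 6.89 and 8.73. The locus near Adgrv1 contacted Arrdc3, a regulator of metabolism and receptor trafficking, with 33.6 and 33.8.

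The most contacted of these fragments held the locus of rank 867, 1.90 kb from the start of Apoe, with 25 contacts, of which 13 were listed on both diets, 2 on LD alone and 10 on CD alone. Its contacts included Apoc1, Apoc4 and Tomm40, which neighbour Apoe, and Foxa3, a hepatocyte transcription factor. This locus was chosen after its contacts were seen.

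The nearest genes were the genes of the RNA table with the closest start site. The 2000 loci had 1563 of them, of which 1253 were nearest to 1 locus, 220 to 2 and 90 to 3 or more. With 6 loci each, the most frequent were Nr3c1, the glucocorticoid receptor gene, Rxra, the partner of many nuclear receptors, Nectin1, an adhesion protein gene, and Vegfa, a growth factor of blood vessels. Next, with 5 loci each, came Gse1, Foxo3, a forkhead factor of insulin signalling, 1700108F19Rik, Fbxo15 and Mir122, the most abundant microRNA of hepatocytes. With 4 loci each came 15 genes, of which Lifr had the highest locus.

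The nearest genes were expressed well above the table as a whole. Their median TPM was 12.1, against 4.47 for genes nearest only to other shared loci and 0.496 over all 25494 rows. By mouse, the median over the nearest genes was 11.7 ± 0.90 on LD and 11.8 ± 0.69 on CD (SD, n = 5 each). A TPM of at least 1 was reached by 75.9% of the nearest genes, 64.5% of those of other shared loci and 46.3% of all rows, and 275 of the nearest genes (17.6%) reached 100 TPM, against 4.66% of all rows. Genes with a highest locus within 1 kb of their start had a median of 50.1 TPM (209 genes), and those whose loci all lay beyond 50 kb had 2.82 (315 genes). Genes nearest to 2 loci had a median of 21.3 TPM those nearest to 3 or more had 19.8 and those nearest to 1 had 9.85. Among the 20 highest loci, the nearest gene Kcnk16, a potassium channel, was listed at 0 TPM in the mean of each diet, and Tnfrsf8 at 0.019 and 0.006.

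Between the diets, counts of 13494 rows were tested with edgeR's quasi-likelihood test, and a gene was called at an adjusted p-value under 0.05 and a change above 1.2-fold. Of all rows tested 24.9% were called, 13.8% higher on LD and 11.1% higher on CD. Of the 1563 nearest genes 1257 passed the filter on low counts, and 429 of these (34.1%) were called. More of them were higher on CD, with 271 genes (21.6%), than on LD, with 158 genes (12.6%). In 298 (23.7%) the 5 mice of one diet all stood above the 5 of the other, against 18.5% of all rows tested. By limma on log2(TPM + 1) the calls among the nearest genes were 195 higher on LD and 157 higher on CD, and those over all rows were 2220 and 740. Which diet had more calls among the nearest genes therefore differed between these fits, which differ in both the values and the test, while in both CD took a larger share of the calls among the nearest genes than over all rows, 63.2% against 44.6% by edgeR and 44.6% against 25% by limma.

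The share of called genes was also read within classes of RNA level. Among genes of 10 to 100 TPM, 34.9% of the 553 nearest genes were called and 21.9% of the 4505 other genes tested, with 23.0% and 9.74% higher on CD. Among genes of at least 100 TPM the shares were 32.7% of 275 and 33.0% of 914, with 19.6% and 17.4% higher on CD. Nearest genes with C/EBPa in all 4 samples at a locus were called in 38.5% of 657, and the other nearest genes in 29.3% of 600.

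**Figure D4:**
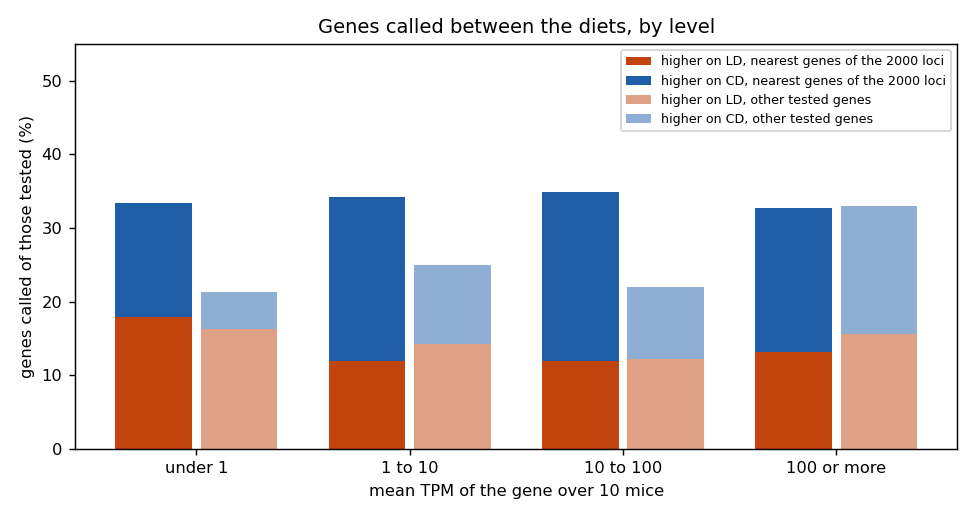
Share of genes (%) called between the diets by edgeR, stacked as higher on LD and higher on CD, by the mean TPM of the gene, for the nearest genes of the 2000 highest loci (full colour) and the other genes tested (pale). At 10 to 100 TPM 34.9% of the nearest genes and 21.9% of the others were called, while at 100 TPM or more the shares were 32.7% and 33.0%.

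Markers of some other cell types moved with the diet. The summed TPM of 6 adipocyte markers on LD was 174 to 244, against 19.2 to 30.5 on CD, with Cidec, Fabp4 and Cfd carrying nearly the whole of the sum, while the defining markers Plin1 and Lep (2 of the 6) were at 0 in every mouse and Adipoq was near 0. That of 9 macrophage markers was 582 to 1348 and 367 to 706, that of 8 stellate cell markers 334 to 551 and 269 to 318, that of 7 cholangiocyte markers 53.5 to 151 and 21.0 to 36.8, and that of 8 lymphocyte markers 17.7 to 34.9 and 13 to 16.3. The macrophage sums overlapped between the diets, as did those of 8 endothelial markers, with 263 to 359 on LD and 275 to 322 on CD. Of these lists, 3 of the 3 adipocyte markers tested, 2 of 9 macrophage, 4 of 8 stellate, 1 of 7 cholangiocyte, 2 of 8 lymphocyte and 1 of 8 endothelial markers rose on LD and none fell, beside 13.8% of all rows tested that were higher on LD. The part of these in the called genes was not tested.

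Of the nearest genes of the 20 highest loci, those lower on LD were Lifr, Gse1, Insr and Fermt2. Lifr was at 148 to 212 CPM (counts scaled to the library size) on LD with a median of 185, and at 381 to 551 on CD with a median of 407, and the mice did not overlap. Its fold change was 2.44 (log2 difference -1.29 ± 0.12 SE, edgeR adjusted p = 2.09e-05). Insr was at 98.8 to 143 CPM on LD and 130 to 189 on CD, with overlap, and fell by 0.47 ± 0.11 on the log2 scale (adjusted p = 0.00701). Fermt2 fell by 0.40 ± 0.07 (adjusted p = 0.00111), with 113 to 139 CPM on LD and 151 to 165 on CD. Gse1 was at 4.96 to 8.39 CPM on LD and 8.60 to 12.7 on CD, and fell by 0.72 ± 0.15 (adjusted p = 0.00284). The chemokine gene Cxcl2, nearest to the locus of rank 18, was at 0.0318 to 0.255 CPM on CD and 0.403 to 0.587 on LD. It passed the filter on low counts through the LD mice alone, so no test result is given for it. Nrip1, at 6.70 TPM on both diets, and Hjurp, at 1.87 and 2.03, were not called.

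Among the nearest genes with separated diets, the 5 with the largest decrease on LD were Hsd3b5, Gm16551, Pnpla3, C8b and Igfbp2. Hsd3b5, a male-biased steroid reductase gene of mouse liver, was at 18.4, 29.2, 1.61, 0.243 and 0.112 CPM in the LD mice and at 429, 393, 408, 442 and 360 in the CD mice. The LD mice varied widely, and the log2 difference was -5.34 ± 1.21 (edgeR adjusted p = 0.0126). Its locus, rank 1752 in an intron of the gene, carried H3K27ac in all 6 samples and C/EBPa in all 4. Pnpla3, a lipase gene induced by carbohydrate feeding, was at 2.30 to 4.67 CPM on LD and 14.1 to 30.2 on CD (fold change 4.94, adjusted p = 0.000107). C8b, which encodes a chain of complement component C8, was at 162, 152, 78.8, 59.3 and 49.7 CPM on LD and 318 to 432 on CD. Igfbp2, a binding protein of insulin-like growth factors, was at 63.1 to 149 on LD and 286 to 406 on CD. Hsd3b5 belongs to a family of close relatives, so its reads may be partly shared. Gm16551, a non-coding gene with its locus 191.8 kb away, was at 0.667 to 1.99 CPM on LD and 4.13 to 8.32 on CD.

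The 5 with the largest increase were Cyp2b13, Saa1, Fam19a2, Adgrv1 and Lamb3. Cyp2b13, a cytochrome P450 gene, was at 0.920, 0.453, 3.79, 9.31 and 2.85 CPM on LD and was at 0 in 4 of the 5 CD mice, so no fold change is given. It has near-identical relatives that could share its reads. Saa1, an acute phase protein gene, was at 85.7 to 115 CPM on LD and 7.59 to 18.7 on CD (log2 difference 2.86 ± 0.19, adjusted p = 8.57e-06), and its highest locus lay on a bait fragment 4.22 kb from the start. Its reads may be partly shared with its close relative Saa2. Adgrv1, an adhesion receptor gene, was at 22.4 to 39.5 CPM on LD and 4.19 to 6.17 on CD (adjusted p = 2.59e-06). Lamb3, a laminin chain gene, was at 8.66 to 33.4 on LD and 2.51 to 4.80 on CD.

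**Figure D5:**
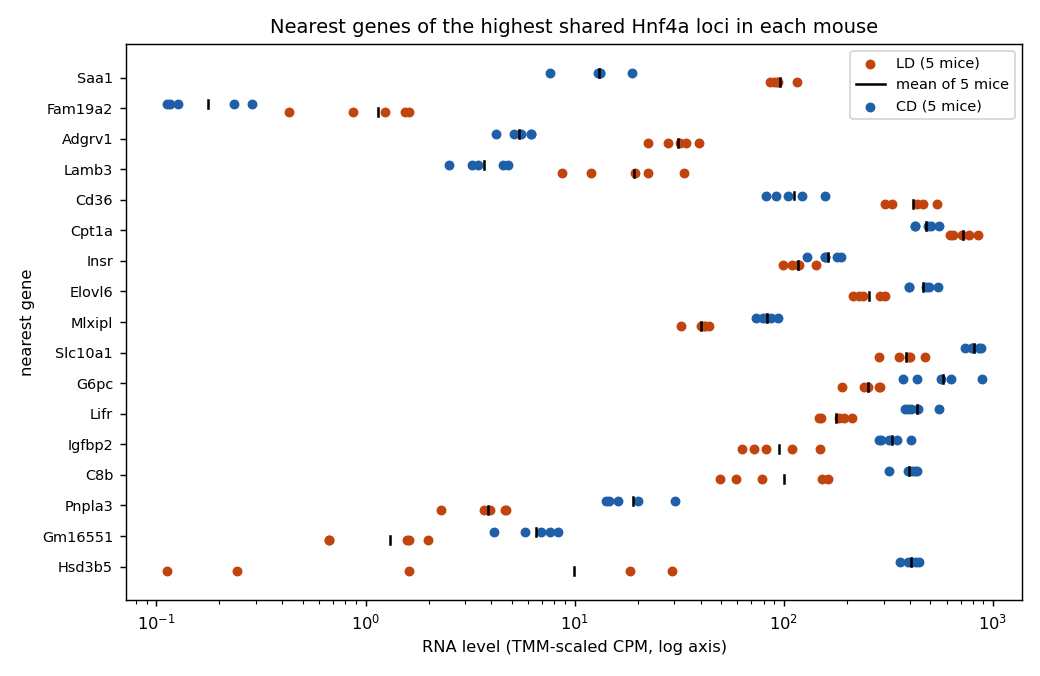
RNA level (TMM-scaled CPM, log axis) of 17 nearest genes of the highest shared Hnf4a loci, with 1 point for each of the 5 LD and 5 CD mice and a line at the mean. The diets are separated in each gene shown other than Insr, and the LD mice of Hsd3b5 range from 0.112 to 29.2 CPM.

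Genes were also grouped by function, with lists that earlier results of these data may have influenced. The counts of each list stand beside the 13.8% of all rows tested that were higher and the 11.1% that were lower on LD. Transcription factors of hepatocytes had the largest share of nearest genes among these lists, with 16 of 22 genes and 29 loci. They included Prox1, Foxa2, Rxra, Nr2f2, Ppara, Gata4, Cebpb and Cebpa. Of the 16, 1 rose on LD and 4 fell, and of the whole list 2 rose and 5 fell. Prox1, a homeobox factor of hepatocytes, was at 26.4 to 40.9 CPM on LD and 36.5 to 70.8 on CD, and its call (edgeR adjusted p = 0.0347) was lost under 9 of the alternatives, among them leaving out LD replicates 2, 3 or 5 or CD replicates 2 or 3, where adjusted p reached 0.0791. Foxa2, a pioneer factor, had a log2 difference of 0.03 ± 0.16 and was not called.

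Apolipoproteins and lipoprotein genes were nearest in 13 of 22 cases, with a median of 1088 TPM. Of the 13, 1 rose and 4 fell on LD, and of the whole list 2 rose and 5 fell. Lipc, hepatic lipase, was at 100 to 131 CPM on LD and 179 to 198 on CD (log2 difference -0.72 ± 0.08, edgeR adjusted p = 3.64e-05). Abca1, the cholesterol exporter that forms HDL, fell by 0.52 ± 0.10 on the log2 scale (adjusted p = 0.00202). Apob had a difference of -0.23 ± 0.12 and Apoh, beta-2-glycoprotein, of -0.14 ± 0.08, neither of which was called.

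Coagulation and complement genes were nearest in 15 of 34 cases, and 8 of the 15 fell on LD and none rose, while over the whole list 15 of 34 fell and 1 rose. C8a fell by 0.51 ± 0.13 on the log2 scale (edgeR adjusted p = 0.0115). The clotting genes Proz and Proc, whose loci lay 53 and 59 bp from their starts, had log2 differences of -0.23 ± 0.08 and -0.19 ± 0.08 and were not called. Of other secreted plasma proteins, 14 of 34 were nearest, with 2 higher and 4 lower on LD, and 7 and 11 over the whole list. Trf, transferrin, was nearest to 2 loci, the highest of rank 103, and had a log2 difference of 0.18 ± 0.08 that was not called. Amdhd1, an enzyme gene of histidine breakdown, stood on this list although its product is not secreted, and fell by 0.36 ± 0.09 (adjusted p = 0.0108). Gc, the vitamin D binding protein, was nearest to 3 loci and was not called, with 7131 to 8181 CPM on LD and 6913 to 7703 on CD.

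Genes of bile acid synthesis and transport were nearest in 7 of 16 cases, with 1 higher and 1 lower on LD, and 2 and 4 over the whole list. Slc10a1, the sodium-dependent importer of bile acids, was at 285 to 475 CPM on LD and 739 to 873 on CD, without overlap (log2 difference -1.08 ± 0.11, edgeR adjusted p = 3.44e-05). Its locus of rank 194 lay 8.04 kb from the start, with H3K27ac in all 6 samples and C/EBPa in all 4. Baat, which joins bile acids to amino acids, and Akr1d1, a reductase of their synthesis, were not called, with log2 differences of -0.04 ± 0.08 and -0.14 ± 0.08.

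Genes of the urea cycle and amino acid breakdown were nearest in 9 of 26 cases, with 4 lower on LD and none higher, while over the whole list 13 were lower and 1 was higher. Ass1, an enzyme of the urea cycle with a locus of rank 35 in an exon of Hmcn2, 9.73 kb upstream of the Ass1 start, was at 1114.5 to 1742.5 CPM on LD and 1638 to 2274 on CD, and fell by 0.54 ± 0.13 on the log2 scale (edgeR adjusted p = 0.00662). Gnmt, a glycine methyltransferase, was at 628 to 1421 CPM on LD and 1452 to 1723.5 on CD, without overlap. Aass, an enzyme of lysine breakdown, fell by 0.31 ± 0.08 (adjusted p = 0.00899), a call lost with limma on TPM, where the change was under 1.2-fold (adjusted p = 0.019 and 0.0193 with a pseudocount of 1 and 0.1). Bhmt, a betaine methyltransferase nearest to 4 loci, was not called at 0.17 ± 0.14.

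Genes of glucose and fructose metabolism were nearest in 11 of 18 cases, with 4 lower on LD and none higher, and over the whole list 6 were lower and 1 was higher. G6pc, the last enzyme of glucose production, was at 190 to 289 CPM on LD and 372 to 884 on CD, without overlap (log2 difference -1.20 ± 0.22, edgeR adjusted p = 0.00244). Of its 3 loci, the highest lay 0.246 kb from the start. Gys2, liver glycogen synthase, had its locus of rank 60 at 0.012 kb from the start and was not called (0.06 ± 0.10). Pck1, which feeds glucose production, had a log2 difference of -0.49 ± 0.26 and was not called.

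Genes of triglyceride synthesis and lipogenesis were nearest in 11 of 20 cases, with 6 lower on LD and 1 higher, and over the whole list 9 were lower and 1 was higher. Mlxipl, which encodes the carbohydrate-responsive factor ChREBP, was at 32.1 to 43.8 CPM on LD and 73.8 to 94.3 on CD, without overlap (log2 difference -1.06 ± 0.09, adjusted p = 8.57e-06 by edgeR). Elovl6, a fatty acid elongase, was at 214 to 305 and 395 to 544 and fell by 0.85 ± 0.12 (adjusted p = 0.000247). Agpat2 and Dgat2, enzymes of triglyceride assembly, were not called, with log2 differences of 0.24 ± 0.09 and -0.28 ± 0.10.

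Genes of fatty acid oxidation and ketogenesis were nearest in 5 of 25 cases, and 3 of the 5 rose on LD while none fell. Cpt1a, which admits fatty acids to mitochondria, was at 626 to 846 CPM on LD and 422 to 549 on CD, without overlap (log2 difference 0.59 ± 0.10, edgeR adjusted p = 0.001). Cd36, a fatty acid importer, was at 304 to 541 and 81.9 to 157 (log2 difference 1.89 ± 0.20, adjusted p = 0.000104). Acsl1 and Acaa2 were not called, at 0.17 ± 0.14 and 0.08 ± 0.08. Over the whole list 15 of 25 genes rose and none fell.

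Cytochrome P450 genes of xenobiotic metabolism were nearest in 7 of 23 cases, with 3 higher on LD and none lower, while over the 22 genes of the list that were tested 8 rose and 3 fell. Cyp3a25 rose by 0.36 ± 0.09 on the log2 scale (edgeR adjusted p = 0.00966) and Cyp2d26 by 0.35 ± 0.11 (adjusted p = 0.0255), with the latter call lost when LD replicates 3 or 4 or CD replicates 2 or 4 were left out (adjusted p 0.0514 to 0.0674). Both belong to families whose reads may be partly shared. Cyp2e1, with 4019.6 to 7541 CPM on LD and 5227 to 7536 on CD, was not called. Of 16 mitosis genes 2 were nearest, Mki67 and Kif11, and both rose on LD, as did each of the 16 over the list. Mki67, a proliferation marker, was at 10.5 to 20.1 CPM on LD and 4.19 to 7.20 on CD, but its locus lay 269.8 kb from the start.

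Of the 10 hepatocyte markers, 1 rose and 4 fell on LD. Of the list 4 were nearest genes, Apob, Apoa1, Alb and Cyp2e1, and none of these 4 was called. Alb, serum albumin, was at 60338 to 76681 CPM on LD and 62725 to 75317 on CD, with loci of which the highest had rank 1035. Their highest loci ranked from 207 to 1094, below those of Lifr and Insr, whose RNA levels were lower.

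Of the genes with the most loci, Vegfa fell on LD from 74.9 to 105 CPM on CD to 50.9 to 61.8, without overlap (log2 difference -0.56 ± 0.09, edgeR adjusted p = 0.000666). Nr3c1 fell by 0.29 ± 0.09 (edgeR adjusted p = 0.0237), a call lost under 7 alternatives, among them leaving out LD replicates 3 or 4 or CD replicates 3 or 4 (adjusted p 0.0527 to 0.0642). Rxra, Nectin1 and Foxo3 were not called, with log2 differences of -0.18 ± 0.09, -0.27 ± 0.25 and 0.08 ± 0.11. Mir122, was listed at 5.09 ± 1.88 TPM on LD and 11.4 ± 4.96 on CD (SD, n = 5 each) and did not pass the filter on counts.

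Genes on baits contacted by the highest loci numbered 909, of which 739 were tested and 221 (29.9%) were called, 80 higher on LD and 141 higher on CD. Their median was 10.03 TPM. Genes contacted only by other shared loci had a median of 5.90 TPM, and 27.9% of those tested were called. Among the contacted genes that were not a nearest gene, 131 of 519 tested (25.2%) were called, which is near the 24.9% of all rows.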

How the data were processed

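The loci, gene lists and strings were chosen with earlier results of these data known. Hnf4a and C/EBPa peaks were called by the authors with HOMER against input after alignment to mm9 with Bowtie 0.12.8 and duplicate removal with Picard 1.110, 1 list for each sample. The deposited lists give a height (normalized tag count, a signal value that is 0.25 times the tag count in each Hnf4a list and 0.5 times in each C/EBPa list), the tag counts and a HOMER score, which was used only for an alternative ranking. H3K27ac intervals were called by the authors with SICER (window 200, gap 200, FDR 0.001), and only their positions were used. PCHi-C lists give the CHiCAGO score that the authors computed from pooled samples. RNA read pairs were aligned with STAR 2.5 and counted by the authors with featureCounts 1.5.0-p1, and both the deposited counts and the authors' TPM values were used. The authors' own columns of comparisons and the domain lists were not used. No column of per-sample values was left without a sample (0 columns), and 1 TPM column whose name gave another replicate number was used as a CD replicate without a number.

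Peaks that overlapped by 1 bp or more were merged and ranked with Python 3.11.15. Genes and their start sites came from the coordinates of the RNA table. The GENCODE annotation of mm9 gave the placement in introns and exons and the annotated transcript starts. Sequences came from the mm9 genome read with pysam 0.24.0. Counts were tested with edgeR 4.0.16 (filterByExpr, TMM, quasi-likelihood, no block) and heights with limma 3.58.1 on log2(height + 1), both with Benjamini-Hochberg adjustment over all features tested. P-values measure only the spread between these samples. Each test was first tested on simulated data, where edgeR found 197 of 200 changed genes with 8 false calls among 13429 genes.

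Named were the nearest genes of the 20 highest loci, the 10 genes nearest to the most loci, the 5 separated genes with the largest fold change in each direction that reached a mean of 1 CPM on LD or on CD (Fam19a2 and Cyp2b13 through LD alone), and up to 4 genes of each list with the highest locus. The result of 1 searched string is not reported here. Alternatives were DESeq2 1.42.0, other scalings, filters, pseudocounts and rankings, and leaving out each sample.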

Additional observations from a re-analysis of the deposited data

Results flagged for a closer look

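Of 144 groups of 5 mice tested for the RNA of named genes, 8 held a mouse that stood far from the other 4, a rate that chance gives in about 1 of 20 groups. On LD, replicate 1 was high for Fermt2, with 139.3 CPM against 113.1 to 119.1, and for Saa1, with 115.1 against 85.72 to 93.5. On CD, replicate 3 was high for Dgat2, with 659.6 CPM against 522.1 to 558.4, and for Proz, with 288.4 against 258.7 to 267.1. The same mouse was low for Gnmt, with 1452 CPM against 1646 to 1723, and was the CD mouse with reads of Cyp2b13, at 0.05586 CPM where the others were at 0. CD replicate 4 was low for Amdhd1, with 217.3 CPM against 242 to 251.7, and CD replicate 1 for Gse1, with 8.603 against 11.79 to 12.74.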

How the results depend on the processing

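With a mouse left out, the share of nearest genes called between the diets was 29.4% to 35.3%. Over all rows tested in those runs it was 20.8% to 25.6%. With a replicate block the nearest genes were at 33.3%, against 23.5%, and by limma on log2(TPM + 1) at 28.0%, against 21.9%. For genes with a start within 50 kb the share was 28.8%, against 24.9%. Every alternative stayed within 1.5 times the main share, a band that also takes in the 24.9% of all rows. The replicate numbers did not pair the samples, with correlations of -0.08 to 0.19 for RNA. With the replicate block 5.15% of the Hnf4a heights (8.32% over all shared loci) and 18.5% of the C/EBPa heights (17.2% over all loci tested) were called. The share of highest loci with a called Hnf4a height, from which nothing is read because the heights chose the loci, was 0% in heights as deposited, where 1 locus had an unadjusted p under 0.05, 2.65% in quantile-normalised heights and 1.75% to 7.55% with a sample left out. For C/EBPa heights it was 3.72% as deposited and 8.57% to 17.9% with a sample left out. With 1000 loci the share with H3K27ac in all 6 samples was 97.1%, with C/EBPa in all 4 samples 50.3%, on a listed fragment 53.2% and with the HNF4 string 38.3%, and with 4000 loci the first 2 were 94.9% and 42.9%. C/EBPa fell to 36.9% where peak centres had to lie within 100 bp, and to 43.4% for peaks above the median height. Other definitions gave 15.5% within 1 kb of any annotated transcript start, 19.2% on a fragment at a score of at least 10, a median of 8.37 TPM for genes within 50 kb, and an HNF4 string in 29.5% of central 100 bp, 40.0% of central 400 bp and 41.6% with either string. Of 35 named genes called, 31 kept the call in every alternative, and none of the 72 tested was reversed. The exceptions were Aass, Cyp2d26, Nr3c1 and Prox1. The cause of these shifts was not tested. The edgeR fit on tags, the quantile-normalised heights and the use of either string were chosen after seeing the data. With 2 samples on each diet and pooled contact lists, the factor and contact comparisons rest on little or no replication. Where leaving out a sample left 1 on a diet, limma assumed that it varies like the other diet.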

Other observations

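The X chromosome was nearly absent from the highest loci, with 2 of 2000 (0.1%), compared with 2.05% of the other shared loci, 0.5% of the next 2000 and 9.15% of the lowest ranks. The mice were male, with a single X chromosome, and the ranking by height made no allowance for it. The GC content of the central sequence had a median of 50% in the highest loci and 46.8% in the lowest ranks. Both are values of these lists with no test.

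Highest loci within 1 kb of a start differed from those beyond 50 kb in several features. Of the former, 82.5% lay on a listed PCHi-C fragment and 33.5% had C/EBPa in all 4 samples. Of the latter, 46.3% lay on a listed fragment and 50.2% had C/EBPa in all 4 samples. The HNF4 string was present in 29.7% and 37.5%.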
